A study of Caenorhabditis elegans with 18 samples.

Results

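The 10 glycolytic enzyme genes described here are the hexokinase genes hxk-1, hxk-2 and hxk-3, the glucose-6-phosphate isomerase gene gpi-1, the phosphofructokinase gene pfk-1.1, the aldolase gene aldo-2, the enolase gene enol-1, the pyruvate kinase genes pyk-1 and pyk-2 and the lactate dehydrogenase gene ldh-1. They were taken by name: a probe set counted as a member if the platform annotation gave it a single gene symbol and that symbol was one of the 10. Each gene had 1 such probe set, so 10 of the 28387 probe sets on the array, and 10 of its 25478 distinct single symbols, were members. RNA came from Caenorhabditis elegans wild type strain N2, the standard laboratory nematode, as pools of 7500 to 10000 worms per well that reached the last larval stage or young adulthood before a 48 h exposure at 20 °C. All worms, controls included, lived in soil polluted with lead (2700 mg/kg), zinc (4200 mg/kg) and cadmium (310 mg/kg), with OP50 bacteria as food. The soil had been treated with nanoscale zero-valent iron (nZVI soil), a reactive iron powder used to bind metals, or had not (control soil). Both soils were tested at 0 days, 14 days and 4 months, giving 6 groups of 3 arrays, and the labels do not say what event the times are counted from.

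Glycolysis splits glucose into pyruvate in the cytosol and yields ATP and NADH. Hexokinase, phosphofructokinase and pyruvate kinase catalyse its practically irreversible steps, and the other enzymes work close to equilibrium and also run in reverse during gluconeogenesis. Lactate dehydrogenase converts pyruvate to lactate and gives back NAD, which keeps the pathway running when respiration is limited. In C. elegans the hypoxia-inducible factor HIF-1 and the energy sensor AMPK are among the regulators of sugar use.

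The clearest change was in pyk-2, 1 of the 2 pyruvate kinase genes measured. It was 3.13-fold higher in nZVI than in control soil at 0 days and 1.58-fold higher at 14 days, and the 0-day effect exceeded the effects at both later times. Its paralog pyk-1 was not called at any single time. At 0 days pfk-1.1 was also higher in nZVI soil, and hxk-1 and ldh-1 were lower. The pfk-1.1 and ldh-1 calls were lost without any one of 2 and 3 of the 18 arrays. Averaged over times 5 of the 10 genes were higher in nZVI soil and 2 were lower, where 20.1% of all probe sets were called, and gpi-1, aldo-2 and enol-1 were not called in any comparison of the soils. With each array left out in turn, 5 to 6 members were called on the average over times, never all 7. Called means an adjusted p under 0.05 in limma, with Benjamini-Hochberg adjustment over all 28387 probe sets.

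Values are log2 signals, on which a difference of 1 is a doubling. The 18 arrays had medians of 3.85 to 3.99, and arrays of one group correlated at 0.970 to 0.996 across probe sets. Control arrays 1 and 3 at 4 months had narrower interquartile ranges, 3.80 and 3.70, than the 16 others (4.07 or more). Mean signals of the members lay above those of 75.8% (pyk-2) to 99.1% (aldo-2) of all probe sets, so none was near the bottom of the scale. A probe set's level depends on its own probes, so levels are compared between groups only. Probe sets of close paralogs such as pyk-1 and pyk-2, or the hexokinases, may share some signal. The number of arrays limits precision, and the labels give independent RNA for each replicate without saying that it came from separate cultures, so the p-values measure the spread between these arrays, which may be technical.

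**Figure D1:**
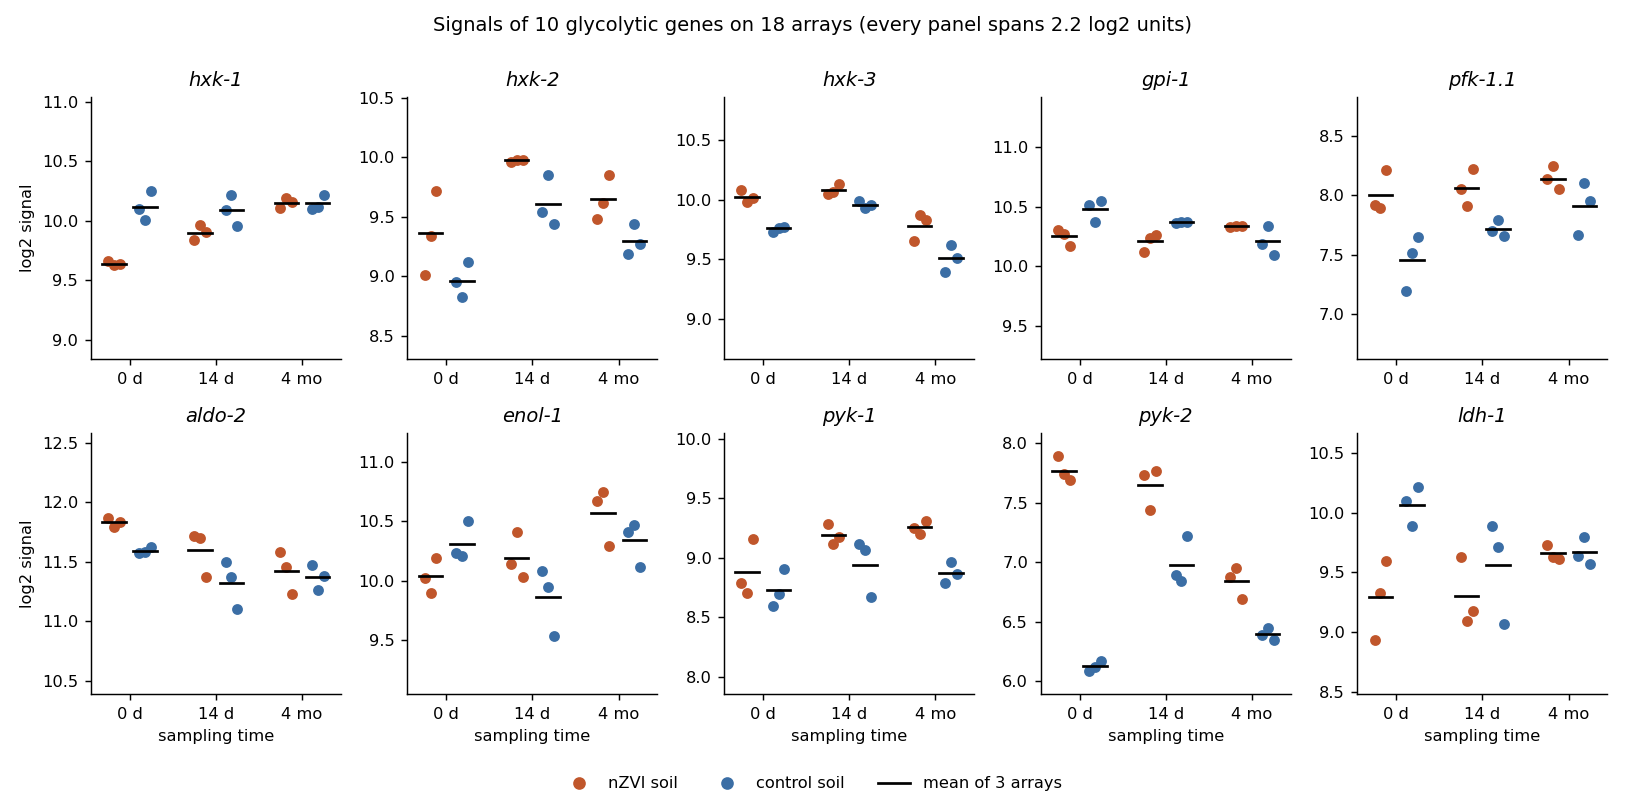
Log2 signal of each of the 10 glycolytic genes (y axis, 2.2 log2 units in every panel) on the 18 arrays by sampling time, with nZVI soil left of control soil at each time. Points are arrays and bars are means of 3 arrays. In the pyk-2 panel the nZVI arrays at 0 days (7.69 to 7.89) stand above the control arrays (6.09 to 6.17), and the gap is smaller at 14 days and 4 months.

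Pyruvate kinase carries out the last step, from phosphoenolpyruvate to pyruvate. At 0 days pyk-2 (ZK593.1) read 7.89, 7.74 and 7.69 on the 3 nZVI arrays, against 6.09, 6.12 and 6.17 on the control arrays. Every nZVI array was above every control array, and the gap between the groups was many times the spread within either. The log2 difference was 1.65 ± 0.14 (SE; 95% interval 1.36 to 1.93; adjusted p = 4.7e-07), and 205 of all probe sets rose more. At 14 days pyk-2 read 7.73, 7.44 and 7.77 in nZVI soil, against 6.89, 6.84 and 7.22 in control soil. The groups again did not overlap, with control array 3 standing nearest to the nZVI arrays, and the difference was 0.66 ± 0.14 (adjusted p = 0.00405). At 4 months the values were 6.88, 6.95 and 6.69 in nZVI soil and 6.39, 6.45 and 6.35 in control soil. These groups did not overlap either, but the difference of 0.45 ± 0.14 (1.36-fold, 95% interval 0.16 to 0.73) missed the threshold (adjusted p = 0.0552). It passed without control array 2 at 4 months (adjusted p = 0.0392), nZVI array 2 at 14 days (0.0400) or control array 3 at 14 days (0.0436). The calls at 0 and 14 days held without each of the 18 arrays in turn, as did the average over times, 0.92 ± 0.08 (adjusted p = 2.3e-07).

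The nZVI effect on pyk-2 was itself smaller at the later times. It was lower by 0.98 ± 0.19 on the log2 scale at 14 days than at 0 days (adjusted p = 0.0163) and lower by 1.2 ± 0.19 at 4 months than at 0 days (adjusted p = 0.00184). Both comparisons use the same 0-day arrays. The first was not called without control array 1 at 0 days (adjusted p = 0.0504), and the second held without any single array. Between 14 days and 4 months the effect differed by -0.22 ± 0.19 (95% interval -0.62 to 0.19, adjusted p = 0.550). Among the 10 genes pyk-2 was the 1 called for 14 against 0 days, where 1.05% of all probe sets were called, and the 1 called for 4 months against 0 days, where the share was 4.32% (841 above and 384 below 0, or 605 and 446 with arrays centred on their medians). No member was called for 4 months against 14 days by limma (0 at an unadjusted p under 0.05), against 1.36% of all probe sets (333 above and 54 below 0, or 243 and 82 after centring).

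The paralog pyk-1 (F25H5.3) changed less. At 0 days it read 8.79, 8.7 and 9.16 in nZVI soil, against 8.59, 8.69 and 8.90 in control soil. The groups overlapped, and the difference was 0.16 ± 0.15 (95% interval -0.16 to 0.47, adjusted p = 0.561). At 4 months pyk-1 read 9.25, 9.20 and 9.31 in nZVI soil and 8.79, 8.96 and 8.86 in control soil, without overlap, at a difference of 0.39 ± 0.15 that was not called (adjusted p = 0.125). Averaged over times pyk-1 was higher by 0.26 ± 0.09 (adjusted p = 0.0396), but this call was lost when any of 11 of the 18 arrays was left out (adjusted p = 0.0533 to 0.0871). On each array the log2 difference of pyk-2 minus pyk-1 averaged -1.11 ± 0.31 in nZVI soil and -2.60 ± 0.12 in control soil at 0 days (SD, n = 3 each). At 4 months the same quantity was -2.41 ± 0.19 in nZVI soil and -2.47 ± 0.06 in control soil, and the arrays of both soils overlapped.

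**Figure D2:**
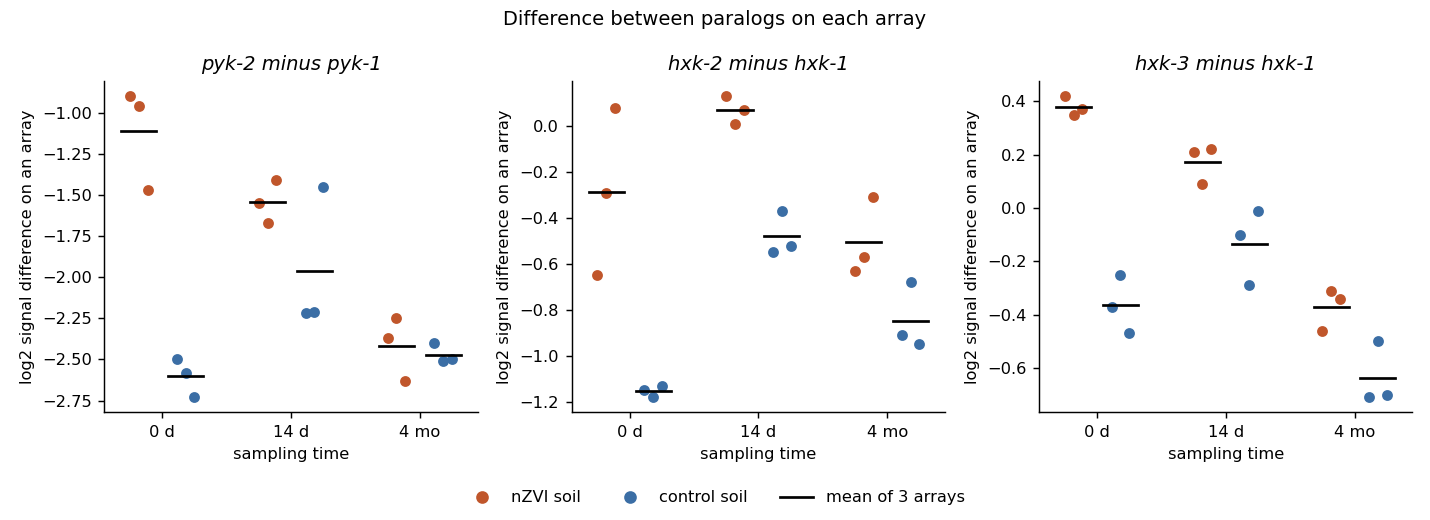
Log2 signal difference between paralogs on each array (y axis) by sampling time, for pyk-2 minus pyk-1, hxk-2 minus hxk-1 and hxk-3 minus hxk-1, with nZVI soil left of control soil. Points are arrays and bars are means of 3 arrays. At 0 days hxk-3 minus hxk-1 lay at 0.35 to 0.42 in nZVI soil, against -0.47 to -0.25 in control soil.

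Hexokinases phosphorylate glucose and so commit it to the cell. The 3 genes did not move together at 0 days. hxk-1 (F14B4.2) read 9.66, 9.63 and 9.64 in nZVI soil, against 10.10, 10.01 and 10.25 in control soil. All nZVI arrays were lower, and the difference of -0.48 ± 0.12 (1.39-fold lower, adjusted p = 0.00880) held without each array in turn. At 14 days hxk-1 averaged 9.9 ± 0.07 in nZVI soil and 10.09 ± 0.13 in control soil (SD, n = 3 each), with overlapping arrays, and at 4 months 10.15 ± 0.04 in nZVI soil and 10.15 ± 0.06 in control soil. Neither later difference was called (adjusted p = 0.425 and 0.978), and the change of the effect from 0 days to 4 months, 0.49 ± 0.16, was not called either (adjusted p = 0.0996). Averaged over times hxk-1 was lower by -0.22 ± 0.07 (adjusted p = 0.0268). Leaving out control array 3 at 0 days, control array 2 at 14 days or nZVI array 1 at 14 days ended this call (adjusted p = 0.0567, 0.0660 and 0.0569), and so did centring the arrays on their medians (-0.18, adjusted p = 0.0739).

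hxk-2 (H25P06.1) was called higher in nZVI soil on the average over times alone. It read 9.01, 9.34 and 9.72 in nZVI soil, against 8.95, 8.83 and 9.12 in control soil at 0 days. The nZVI arrays were widely spread and nZVI array 1 fell within the control range, and the difference of 0.39 ± 0.17 was not called (adjusted p = 0.136), though it was without that array (0.57, adjusted p = 0.0364). At 14 days the nZVI arrays read 9.96, 9.98 and 9.98, against 9.54, 9.85 and 9.44 in control soil. At 4 months they read 9.48, 9.62 and 9.85, against 9.19, 9.44 and 9.27 in control soil. At both later times every nZVI array was higher, by 0.37 ± 0.17 and 0.35 ± 0.17, and neither was called (adjusted p = 0.238 and 0.229). The average over times, 0.37 ± 0.10 (1.29-fold), was called (adjusted p = 0.0124) and held without each single array.

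hxk-3 (Y77E11A.1) was likewise called on the average over times alone. It read 10.08, 9.98 and 10.01 in nZVI soil, against 9.73, 9.76 and 9.77 in control soil at 0 days. The arrays did not overlap, yet the difference of 0.27 ± 0.11 was not called (adjusted p = 0.123). The differences were 0.12 ± 0.11 at 14 days and 0.28 ± 0.11 at 4 months (adjusted p = 0.619 and 0.142). The average over times, 0.22 ± 0.06 (1.17-fold), was called (adjusted p = 0.0207) and held without any single array. Leaving out control arrays 1 and 3 at 4 months together leaves only control array 2 in that group. The averages of hxk-1, hxk-2 and hxk-3 were then -0.21, 0.32 and 0.19, beside -0.22, 0.37 and 0.22 over all arrays. Those of pyk-1 and ldh-1 were 0.23 and -0.40, beside 0.26 and -0.35. None of these averages was called in that fit, unlike those of pyk-2 and pfk-1.1.

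Phosphofructokinase is the main control point of the pathway. pfk-1.1 (Y71H10A.1) read 7.92, 7.89 and 8.21 in nZVI soil at 0 days, against 7.20, 7.52 and 7.65 in control soil. All nZVI arrays were higher, by 0.55 ± 0.15 (1.46-fold, adjusted p = 0.0212). It was no longer called once control array 1 or nZVI array 3 at 0 days was dropped (adjusted p = 0.116 and 0.107), or when those 6 arrays were fitted alone (0.0517). At 14 days the nZVI arrays (7.91 to 8.22) again lay above the control arrays (7.66 to 7.79), at a difference of 0.34 ± 0.15 (adjusted p = 0.213). At 4 months they overlapped, at 8.05 to 8.25 in nZVI soil and 7.67 to 8.10 in control soil. The average over times was 0.38 ± 0.09 (1.30-fold, adjusted p = 0.00524) and held without each array in turn.

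Lactate dehydrogenase has a single gene here, ldh-1 (F13D12.2). At 0 days it read 8.93, 9.33 and 9.60 in nZVI soil, against 10.10, 9.89 and 10.22 in control soil. All nZVI arrays were lower, but their own spread was large, and the difference was -0.78 ± 0.21 (1.72-fold lower, adjusted p = 0.0163). Dropping control array 1, control array 3 or nZVI array 1 ended the call (adjusted p = 0.0552, 0.0614 and 0.0759), with a difference of -0.77, -0.71 and -0.60. At 14 days the arrays overlapped (9.09 to 9.63 in nZVI soil, 9.07 to 9.89 in control soil), and at 4 months the mean was 9.66 ± 0.06 in nZVI soil and 9.67 ± 0.12 in control soil (SD, n = 3 each). The average over times, -0.35 ± 0.12, only just passed (adjusted p = 0.0491) and was not called without any one of 14 of the 18 arrays (adjusted p = 0.0577 to 0.105). Centring the arrays on their medians ended this call as well (adjusted p = 0.0851).

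The 3 remaining genes code for enzymes of near-equilibrium steps. gpi-1 (Y87G2A.8), which turns glucose 6-phosphate into fructose 6-phosphate, had the smallest range over the 18 arrays, 0.46. Its differences were -0.23 ± 0.11 at 0 days, -0.16 ± 0.11 at 14 days and 0.13 ± 0.11 at 4 months (adjusted p = 0.193, 0.503 and 0.531). aldo-2 (F01F1.12), which cleaves fructose 1,6-bisphosphate, read 11.87, 11.79 and 11.83 in nZVI soil at 0 days, against 11.57, 11.58 and 11.62 in control soil. These arrays did not overlap, and the difference of 0.24 ± 0.14 was not called (95% interval -0.05 to 0.54, adjusted p = 0.281). enol-1 (T21B10.2), which forms phosphoenolpyruvate, differed by -0.27 ± 0.17, 0.34 ± 0.17 and 0.23 ± 0.17 at 0 days, 14 days and 4 months (adjusted p = 0.335, 0.304 and 0.449).

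**Figure D3:**
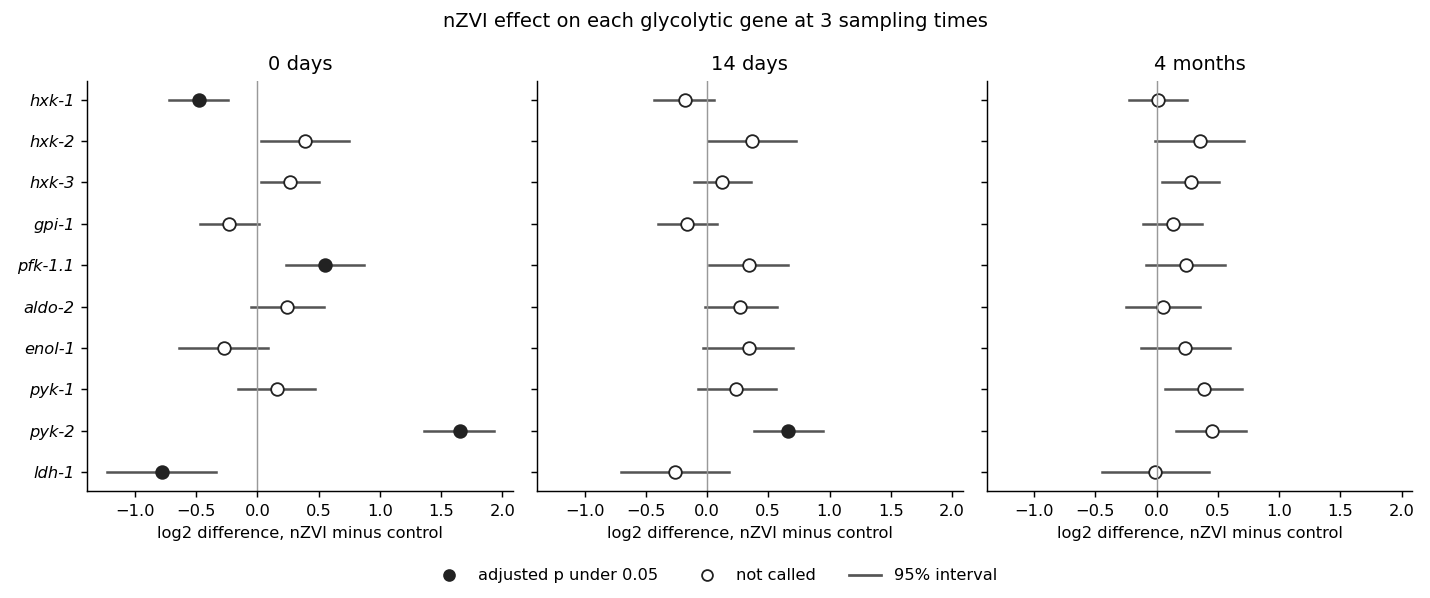
Log2 difference of nZVI minus control soil (x axis) for each glycolytic gene at 0 days, 14 days and 4 months. Circles are estimates from 3 against 3 arrays, lines are 95% intervals, and filled circles passed an adjusted p of 0.05. At 0 days 4 genes are filled, at 14 days pyk-2 alone, and at 4 months none.

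Counted together, 2 members were higher and 2 lower in nZVI soil at 0 days, where 16% of all probe sets were called. At 14 days 1 member was higher, against a background of 8.99% (1023 higher and 1529 lower, or 1299 and 1270 with arrays centred on their medians). At 4 months limma called none (3 at an unadjusted p under 0.05), against 7.08% of all probe sets. On the average over times 5 were higher and 2 lower, against 20.1%. The median difference over the 10 genes was 0.20, 0.26 and 0.24 at 0 days, 14 days and 4 months, beside medians of -0.01, 0.04 and -0.03 over all probe sets. With array weights 3 were called at 14 days (pyk-2, pfk-1.1 and hxk-1) and 1 at 4 months.

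Within a soil, the sampling times also differed. In control soil at 14 days pyk-2 was higher than at 0 days, at 6.89, 6.84 and 7.22 against 6.09, 6.12 and 6.17, without overlap. That was a rise of 0.86 ± 0.14 (1.81-fold, adjusted p = 0.00237). hxk-2 rose alongside by 0.64 ± 0.17 (adjusted p = 0.0223), but not past the threshold once control array 1 or 2 at 0 days or control array 2 at 14 days was dropped (adjusted p = 0.0730, 0.0994 and 0.110). These were the 2 members called, against 11.9% of all probe sets. From 14 days to 4 months in control soil pyk-2 fell by 0.59 ± 0.14 (adjusted p = 0.00698) and hxk-3 by 0.45 ± 0.11 (adjusted p = 0.0110), while all probe sets had a median shift of 0.11 and 20.9% were called. Dropping control array 1 at 4 months ended the hxk-3 call (adjusted p = 0.0537). Neither the pyk-2 nor the hxk-3 call held when the 6 arrays compared were fitted alone (adjusted p = 0.0616 and 0.0885). Leaving out control arrays 1 and 3 at 4 months together leaves only control array 2 in that group. The differences were then -0.54 for pyk-2 and -0.34 for hxk-3, and neither was called. At 4 months against 0 days in control soil limma called no member (3 at an unadjusted p under 0.05), against 9.71% (959 higher and 1796 lower, or 1366 and 1555 after centring). pfk-1.1 was called there without control array 1 at 4 months (0.57, adjusted p = 0.0382).

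In nZVI soil pyk-2 started high and ended lower. At 14 days against 0 days it differed by -0.13 ± 0.14 (adjusted p = 0.667). At 4 months it had fallen by 0.93 ± 0.14 relative to 0 days (1.91-fold, adjusted p = 1.3e-04) and by 0.80 ± 0.14 relative to 14 days (adjusted p = 0.00156). Both calls held without any single array. At 4 months against 0 days 3 other members were called: hxk-1 rose by 0.51 ± 0.12 (adjusted p = 0.00380), enol-1 rose by 0.53 ± 0.17 (adjusted p = 0.0359) and aldo-2 fell by 0.41 ± 0.14 (adjusted p = 0.0464). The enol-1 call was lost without any of nZVI arrays 1 and 2 at 0 days and nZVI arrays 1 and 2 at 4 months (adjusted p = 0.0803, 0.131, 0.104 and 0.151). The aldo-2 call was lost without any one of 11 of the 18 arrays (adjusted p = 0.0510 to 0.194). These 4 calls stand against 22.2% of all probe sets. At 4 months against 14 days pyk-2 was the 1 member called, against 8.53% (1194 higher and 1228 lower, or 890 and 1434 after centring). At 14 days against 0 days the 1 call was hxk-2, higher by 0.62 ± 0.17 (adjusted p = 0.0313), against 8.8%. It was lost without nZVI array 1 or 2 at 0 days (adjusted p = 0.157 and 0.0950), without nZVI array 1, 2 or 3 at 14 days (0.0697, 0.0657 and 0.0793) and in the fit of those 6 arrays alone (0.108).

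The order of the 6 groups differed between genes. For pyk-2 the means ran from nZVI soil at 0 days (7.77) through nZVI soil at 14 days (7.65), control soil at 14 days (6.98), nZVI soil at 4 months (6.84) and control soil at 4 months (6.40) to control soil at 0 days (6.13). Arrays of nZVI soil at 0 and 14 days overlapped, as did those of control soil at 14 days and nZVI soil at 4 months, and the other neighbours did not. For hxk-1 nZVI soil at 0 days was lowest (9.64) and clear of its neighbour, nZVI soil at 14 days (9.9), while the 5 groups above it overlapped neighbour by neighbour. Over the 18 arrays, which share the 6 groups, hxk-1 and pyk-2 correlated at -0.80, pyk-2 and ldh-1 at -0.76, pyk-2 and hxk-3 at 0.79, hxk-2 and pyk-1 at 0.81 and pfk-1.1 and pyk-1 at 0.75. Of the 45 pairs of members, 23 had a coefficient above 0.

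Among the 25545 other probe sets with a single symbol, the 3 most like pyk-2 over the 18 arrays were del-6 (r = 0.957), scav-1 (r = 0.950) and pgp-11 (r = 0.948). del-6 belongs to the degenerin channel family and pgp-11 to the P-glycoprotein transporters. The closest to hxk-1 were klc-1 (r = 0.933), a kinesin light chain gene, ahcy-1 (r = 0.927), which codes for S-adenosylhomocysteine hydrolase, and srt-42 (r = 0.925). The closest to hxk-3 were npa-1 (r = 0.968), math-34 (r = 0.962) and asm-2 (r = 0.952). The 3 nearest to pfk-1.1 included pdhk-2 (r = 0.886), which codes for pyruvate dehydrogenase kinase, and the nearest to ldh-1 was atfs-1 (r = 0.882), a transcription factor of the mitochondrial stress response. The highest coefficients for hxk-2, gpi-1, aldo-2, enol-1 and pyk-1 were 0.939, 0.895, 0.935, 0.927 and 0.932.

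Outside the 10 members 9 other glycolysis genes were measured: pfk-1.2, aldo-1, tpi-1, gpd-1, gpd-2, gpd-3, gpd-4, pgk-1 and ipgm-1. limma called none of them between soils at 0 days, 14 days, 4 months or on the average (2, 2, 3 and 0 at an unadjusted p under 0.05). Their median differences were -0.33, 0.25 and 0.06 at the 3 times. The glyceraldehyde-3-phosphate dehydrogenase genes gpd-1 and gpd-4 are close copies, as are gpd-2 and gpd-3, so their signals may mix. In nZVI soil at 4 months against 0 days pfk-1.2, a second phosphofructokinase gene, rose by 1.16 ± 0.24 (adjusted p = 0.00190) and ipgm-1, the phosphoglycerate mutase, rose by 0.78 ± 0.18 (adjusted p = 0.00494). The pfk-1.2 signal was dim, at 4.11, 3.83 and 3.15 at 0 days and 5.07, 5.13 and 4.37 at 4 months. The array medians were 3.85 to 3.99, so its rise started near the middle of all probe sets, many of them faint.

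At each single time most genes of pathways that feed or drain glycolysis were uncalled between soils. Over all probe sets 16%, 8.99% and 7.08% were called at 0 days, 14 days and 4 months. Of 6 gluconeogenesis and glyoxylate genes, icl-1, which codes for the glyoxylate cycle enzyme, rose at 4 months by 0.82 ± 0.17 (adjusted p = 0.00758), and limma called none at 0 days (0 at an unadjusted p under 0.05). At 14 days fbp-1, the fructose-1,6-bisphosphatase gene, was higher by 0.48 ± 0.14 (adjusted p = 0.0474), a call lost without any one of 12 arrays (adjusted p up to 0.186). On the average over times 2 of the 6 rose, where 20.1% of all probe sets were called. Of 8 genes for pyruvate entry into mitochondria limma called none at 0 days (2 at an unadjusted p under 0.05) or 4 months (0). At 14 days pdhb-1 and dld-1, both subunit genes of the pyruvate dehydrogenase complex, were higher by 0.47 ± 0.13 and 0.43 ± 0.13 (adjusted p = 0.0254 and 0.0451), calls lost without any one of 4 and 12 of the 18 arrays (adjusted p up to 0.122 and 0.192). On the average over times 2 of the 8 rose: dld-1 (0.34 ± 0.07, adjusted p = 0.00281), and pdhk-2, the kinase that inhibits that complex (0.35 ± 0.09, adjusted p = 0.00834). Of 7 pentose phosphate genes limma called none at any single time (0, 1 and 0 at an unadjusted p under 0.05), and 1 rose on the average over times.

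Of 19 tricarboxylic acid cycle genes 4 rose and 2 fell at 0 days. For this and the next lists, 16%, 8.99% and 7.08% of all probe sets were called at 0 days, 14 days and 4 months. The rises at 0 days were the isocitrate dehydrogenase genes idhb-1 (0.82 ± 0.14, adjusted p = 6.1e-04) and idh-2 (0.80 ± 0.14, adjusted p = 7.5e-04) and the succinyl-CoA ligase genes suca-1 (0.79 ± 0.15, adjusted p = 0.00148) and sucl-1 (0.67 ± 0.14, adjusted p = 0.00304). At 14 days and 4 months 2 of the 19 rose at each time and none fell, and each of these calls was lost without any one of 3 to 14 of the 18 arrays (adjusted p up to 0.237). On the average over times 9 of the 19 rose and 1 fell, against 20.1% of all probe sets. Of 13 trehalose and glycogen genes 2 rose and 3 fell at 0 days, with the glycogenin gene gyg-1 lower by -0.84 ± 0.15 (adjusted p = 7.5e-04) and the trehalase gene tre-3 higher by 0.87 ± 0.20 (adjusted p = 0.00655). At 14 days gyg-1 (-0.59 ± 0.15) and tps-1 (-0.75 ± 0.18) were lower and pygl-1 (0.72 ± 0.20) was higher (adjusted p = 0.0145, 0.0131 and 0.0339). These calls were lost without any one of 2, 1 and 3 arrays (adjusted p up to 0.180). limma called none of the 13 at 4 months (3 at an unadjusted p under 0.05). On the average over times 2 of the 13 rose and 2 fell, against 20.1% of all probe sets. Of 6 redox partner genes 2 rose at 0 days, got-1.2 and sodh-2 (0.60 and 0.55), calls lost without any one of 2 and 5 arrays (adjusted p up to 0.0624 and 0.179). At 14 days got-1.2 alone was called (0.62 ± 0.15, adjusted p = 0.0145), and lost without any one of 2 arrays (adjusted p up to 0.0830). limma called none of the 6 at 4 months (2 at an unadjusted p under 0.05). On the average over times 2 of the 6 rose, against the same 20.1%.

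**Figure D4:**
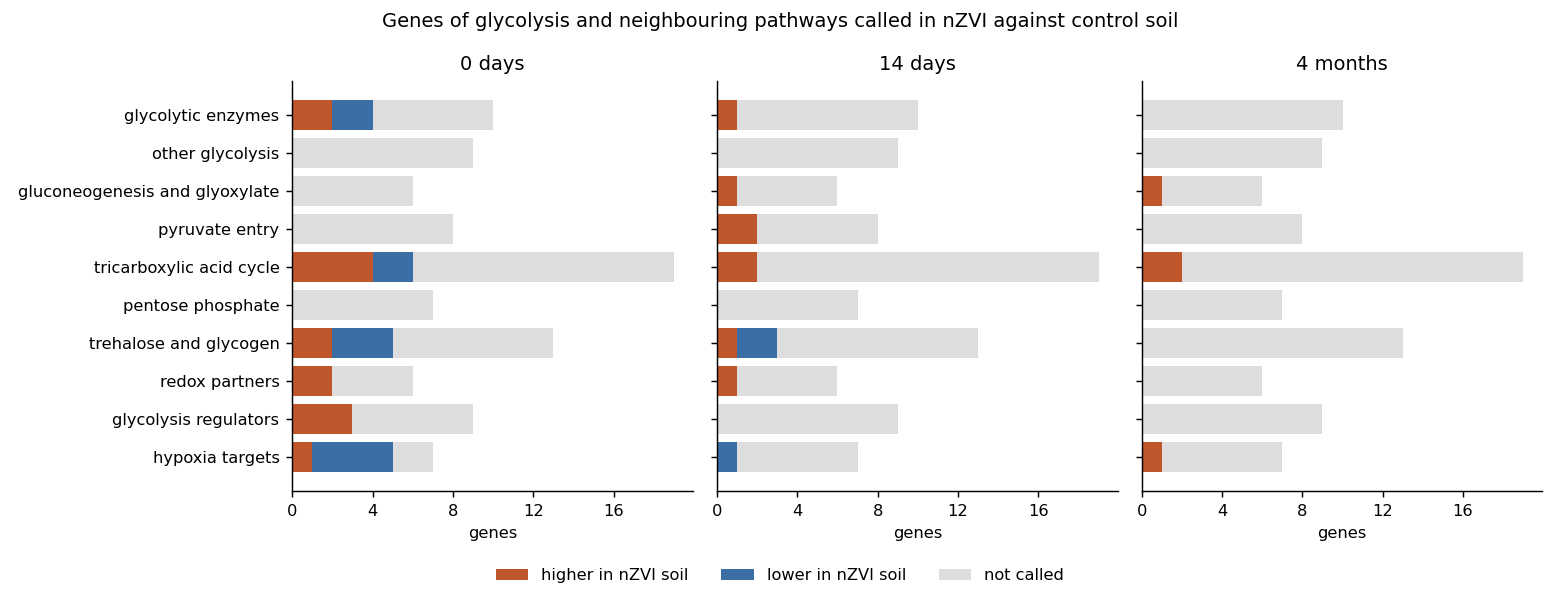
Number of genes (x axis) called higher or lower in nZVI than in control soil, or not called, in the 10 glycolytic enzymes and 9 lists of related genes at 3 sampling times. At 0 days the 9 other glycolysis genes have no call, while 4 of 19 tricarboxylic acid cycle genes are higher and 2 are lower. Over all probe sets 16% were called at 0 days.

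Of 9 measured regulators of sugar use 3 rose at 0 days: mdl-1, which codes for a Mad-like transcription factor (1.06 ± 0.19, adjusted p = 9.9e-04), the AMPK subunit gene aak-2 (0.75 ± 0.14, adjusted p = 0.00136) and the forkhead factor gene daf-16 (0.56 ± 0.14, adjusted p = 0.0121). The daf-16 call was lost without 1 array (adjusted p = 0.0623). Over all probe sets 16% were called at 0 days. limma called none of the 9 at 14 days (2 at an unadjusted p under 0.05) or 4 months (3). On the average over times 3 of the 9 rose and 1 fell, against 20.1% of all probe sets. The fall, of aak-1, was lost without any one of 15 arrays (adjusted p up to 0.105). Of 7 hypoxia target genes 4 fell and 1 rose at 0 days, against the same 16% of all probe sets. The list was not sorted by whether hypoxia raises or lowers a gene, so a rise and a fall in it need not be opposite responses. The falls included sqrd-1, which oxidises sulphide (-1.99 ± 0.21, adjusted p = 7.9e-06), and the riser was the ferritin gene ftn-1 (3.07 ± 0.24), which also responds to iron. At 14 days nhr-57 alone was called, at -0.84 ± 0.24 (adjusted p = 0.0363, lost without any one of 6 arrays). At 4 months phy-2 alone was called, at 0.83 ± 0.20 (adjusted p = 0.0196, lost without any one of 2 arrays). At 0 days phy-2 was lower (-1.49 ± 0.20). Of all probe sets 8.99% and 7.08% were called at 14 days and 4 months. From 0 days to 4 months the effect rose for 4 of the 7 and fell for 1, against 4.32% of all probe sets called.

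Markers of tissues moved with the soils as well. Over all probe sets 16%, 8.99% and 7.08% were called between soils at 0 days, 14 days and 4 months. Of 8 intestine markers 6, 4 and 4 rose in nZVI soil at these times, and none fell. The mean log2 signal of this list was 9.19 to 9.41 in nZVI soil and 8.30 to 8.64 in control soil at 0 days. It was 9.06 to 9.39 in nZVI soil and 8.72 to 8.85 in control soil at 14 days, and 8.89 to 9.03 in nZVI soil and 8.04 to 8.60 in control soil at 4 months, so no array overlapped at any time. Of 12 muscle markers 4, 4 and 3 rose at the 3 times and none fell. Their mean signal at 0 days was 9.43 to 9.54 in nZVI soil and 9.14 to 9.29 in control soil. Of 8 germline markers 3 fell at 0 days, with a mean signal of 7.70 to 8.37 in nZVI soil and 8.59 to 8.80 in control soil, and limma called none at 14 days or 4 months (0 at an unadjusted p under 0.05). Those 3 calls, him-3, syp-1 and htp-3, were lost without any one of 2, 3 and 14 arrays (adjusted p up to 0.253). Of 8 hypodermis markers 1 rose (elt-3, 1.17 ± 0.19) and 1 fell (rol-6, -0.74 ± 0.22) at 0 days, and 4 and 3 rose at 14 days and 4 months with none falling. Neuron, oocyte and sperm markers had at most 1 call each per time. At an unadjusted p under 0.05 in limma there were 0, 2 and 0 neuron, 1, 6 and 0 oocyte and 1, 1 and 2 sperm markers. The median difference of the oocyte list at 14 days was 0.49, beside 0.04 over all probe sets. Sperm markers averaged only 4.06 to 5.09 on any array, with ssp-16 lowest. Markers also moved between times within a soil. In nZVI soil at 4 months against 0 days, where hxk-1, enol-1, aldo-2 and pyk-2 were called, all 8 germline markers rose, as did 5 of 8 oocyte and 6 of 8 hypodermis markers. Of the other lists there, 4 muscle and 2 sperm markers rose, and 3 muscle, 2 intestine and 2 neuron markers fell. In that comparison 22.2% of all probe sets were called, and the sperm, intestine and neuron lists were near that share. The germline list averaged 9.05 to 9.29 at 4 months, against 7.70 to 8.37 at 0 days, and the hypodermis list 7.74 to 7.89 at 4 months, against 6.36 to 6.50 at 0 days. In nZVI soil at 14 days against 0 days 6 hypodermis, 3 oocyte, 3 muscle and 2 germline markers rose and 1 muscle marker fell. The share called over all probe sets was 8.8%. At 4 months against 14 days in nZVI soil 4 sperm, 2 germline and 1 intestine markers rose. There 3 intestine, 2 muscle and 1 hypodermis markers fell, and 8.53% of all probe sets were called. In control soil at 4 months against 14 days, where pyk-2 and hxk-3 were called, 5 of 8 intestine, 4 of 7 neuron, 4 of 12 muscle and 2 of 8 hypodermis markers fell, and 3 germline, 2 hypodermis, 2 sperm, 1 muscle and 1 oocyte markers rose. In control soil at 14 days against 0 days 3 hypodermis, 2 intestine, 1 muscle and 1 neuron markers rose and 3 sperm and 2 muscle markers fell. Over all probe sets 20.9% were called in control soil at 4 months against 14 days and 11.9% at 14 against 0 days. In whole worms fewer cells of a tissue and less RNA per cell cannot be told apart, and the part of these tissue signals in the changes of the glycolytic genes was not tested. The worms entered the exposure at the last larval stage or young adulthood, and whether stage differed between the groups was not tested either.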

How the data were processed

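RNA of 18 samples was hybridised to C. elegans Gene 1.0 ST arrays, 1 array per sample. The authors deposited 1 log2 signal for every probe set and array. The submitters' processing notes name RMA and Transcriptome Analysis Console, with no version (not given in the sources used here). Because RMA equalises the distribution of signals across arrays, a shift common to most transcripts would be hidden. Probe sets were named from the platform annotation (25546 with a single symbol, 646 with several, 2195 with none), with symbols updated through Entrez identifiers (25495 matched).

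All 28387 probe sets were fitted with limma 3.58.1 in R 4.3.3 (lmFit, contrasts.fit, eBayes), with 1 coefficient per group over 18 arrays, for 13 comparisons. Tests were two-sided, with Benjamini-Hochberg adjustment over all probe sets and calls at an adjusted p under 0.05. Depth cannot be given for arrays; 3 arrays per group limit precision. The fit was also run on simulated data with independent normal noise and planted changes at 0 days. Those data lack the many other changes and the narrower arrays seen here, so the run does not show how reliable these calls are. Members and gene lists were chosen with earlier results of these data known. All 10 members were described; from each other list, which keeps 1 probe set per gene (the highest mean signal), up to 4 called genes with the smallest adjusted p were eligible to be named, and for likeness the 3 highest Pearson coefficients per member. Listed genes without a single-symbol probe set (hif-1, egl-9, fgt-1, agl-1, sodh-1, unc-17) were not analysed here.

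Alternatives were median centring, only the compared arrays, a filter on dim probe sets, array weights, trended robust variances, a 2-fold rule, a replicate block and leaving out each array. No array duplicated another, since at most 0.109% of probe sets had equal values on a pair. Same-numbered arrays of both soils correlated in their deviations from group means at 0.0789, 0.0224 and 0.226 at 0 days, 0.0261, 0.0686 and 0.155 at 14 days and 0.374, 0.280 and 0.104 at 4 months (arrays 1, 2 and 3, over probe sets). Only at 4 months were all 3 over 0.1, the criterion for pairing, and there nZVI array 3 stood equally near control array 2 (0.103). In nZVI soil, arrays at 14 days and 4 months also met it (0.108, 0.153 and 0.209). The block joined soils within a time for soil comparisons, and times within a soil for time comparisons. The numbers come from the sample titles.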

Additional observations from a re-analysis of the deposited data

Results flagged for a closer look

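The effect of nZVI soil on pyk-2 differed between sampling times. The difference of the effects was -0.98 for 14 days against 0 days and -1.2 for 4 months against 0 days on the log2 scale, by limma's test of the difference itself (adjusted p = 0.0163 and 0.00184). In both, the later effect was in the same direction and smaller. Both share the 0-day arrays, so they are not independent of each other. At 14 days against 0 days pyk-2 differed by 0.86 ± 0.14 in control soil (adjusted p = 0.00237) and by -0.13 ± 0.14 in nZVI soil (adjusted p = 0.667). At 4 months against 0 days it differed by 0.27 ± 0.14 in control soil (adjusted p = 0.220) and by -0.93 ± 0.14 in nZVI soil (adjusted p = 1.3e-04).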

How the results depend on the processing

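Over all members, comparisons and alternatives, 3223 of 3340 values kept their side of the threshold, 98 lost the call and 19 gained it. Most of these values belong to differences that the main fit did not call, and staying uncalled counted as kept. The pooled share therefore does not measure how stable the calls were. No called difference changed sign; a change of sign in a difference that was called in neither fit was not counted as a reversal. Leaving out each array in turn gave 2 to 4 called members at 0 days, 1 to 1 at 14 days, 0 to 1 at 4 months and 5 to 6 on the average over times. For the nZVI effect it gave 0 to 1 for 14 against 0 days, 1 to 1 for 4 months against 0 days and 0 to 0 for 4 months against 14 days. For control soil it gave 1 to 2 at 14 against 0 days, 0 to 1 at 4 months against 0 days and 1 to 3 at 4 months against 14 days. For nZVI soil it gave 0 to 1, 2 to 4 and 1 to 1 for the same comparisons. With calls made instead at 2-fold and an unadjusted p under 0.05, 1 member was called at 0 days, and 0 at 14 days, on the average, for the effect at 14 against 0 days, in control soil at 14 against 0 days and 4 months against 14 days, and in nZVI soil in all 3 comparisons of times. With array weights the counts were 3 at 14 days, 1 at 4 months, 4 in control soil at 14 against 0 days and 3 in nZVI soil at 4 months against 14 days. The weights also added hxk-2 in control soil at 4 months against 14 days (adjusted p = 0.0493). They added pyk-1 in nZVI soil at 4 months against 0 days (adjusted p = 0.0495). Among brighter probe sets 1 was called at 4 months, and enol-1 was added in control soil at 4 months against 14 days (adjusted p = 0.0477). Trended robust variances added the same enol-1 call (adjusted p = 0.0401). With only the 6 arrays compared, 0 were called in control soil at 4 months against 14 days and in nZVI soil at 14 against 0 days. That fit also lost pfk-1.1 between soils at 0 days (adjusted p = 0.0517) and aldo-2 in nZVI soil at 4 months against 0 days (adjusted p = 0.0683). An alternative chosen after seeing the data left out control arrays 1 and 3 at 4 months, which leaves only control array 2 in that group. The averages of hxk-1, hxk-2, hxk-3, pyk-1 and ldh-1 were then not called. Neither were pyk-2 and hxk-3 in control soil at 4 months against 14 days. With the replicate block, 2 were called in nZVI soil at 4 months against 0 days, where enol-1 and aldo-2 were lost (adjusted p = 0.0580 and 0.0574), and hxk-1 was lost on the average (adjusted p = 0.0522). Median centring ended the hxk-1 and ldh-1 averages (adjusted p = 0.0739 and 0.0851) and the aldo-2 call in nZVI soil at 4 months against 0 days (adjusted p = 0.0545). The block changed no other member's call, including in the comparisons where the numbers paired the arrays. The cause of these changes was not tested. With 3 arrays per group, differences as large as that of pyk-2 at 4 months could miss the threshold.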
